A study of Danio rerio with 9 samples.

Results

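The embryonic globins and the genes around haem synthesis were followed through the deposited expression table of a zebrafish *cep290* study. The 10 gene names asked for were *hbae1*, *hbae3*, *hbbe1*, *hbbe2*, *hbbe3*, *hbaa1*, *hbba1*, *alas2*, *slc4a1a* and *gata1a*, and members were the rows whose name in the table was 1 of them. Of these names 8 were found, on 10 rows of 33737, because *hbae1* and *hbaa1* each stood on a pair of rows. *hbbe1* and *hbba1* matched no row by name. A names table pairs the rows *hbbe1.1*, *hbbe1.2* and *si:ch211-5k11.12* with *hbbe1* copies and *ba1* with *hbba1*, and these are described beside the members as other globin rows. All 10 member rows passed the filter on low values.

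RNA came from whole embryos of the TuAB strain at 72 h post-fertilisation, in 3 pools of 30 embryos a group, raised at the same temperature. The groups were wild type (WT), maternal-zygotic *MZcep290*−/− mutants with a CRISPR/Cas9 deletion of 10 bp in exon 16, and *cep290ex25* morphants, injected with a morpholino against the splice donor of exon 25. The mutant line carries 1 allele, the morpholino acts only transiently, and no library from embryos injected with a control morpholino was analysed here. Which clutch each pool came from is not in the sample labels, so p-values measure the spread between these pools.

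Haemoglobin is a tetramer of alpha-type and beta-type globin chains, each holding a haem group that binds oxygen. Zebrafish embryos use embryonic alpha (hbae) and beta (hbbe) chains in their primitive red blood cells and change to adult chains (hbaa, hbba) later. Developing red cells make haem from glycine and succinyl-CoA, with Alas2 as the erythroid form of the first enzyme, while Gata1a is the transcription factor that drives the erythroid programme and Slc4a1a (band 3) is the anion exchanger of the red cell membrane. The comparisons ask whether loss or knockdown of a ciliary gene was accompanied by a difference in these transcripts.

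Levels are given as RPKM, reads scaled by the length of the gene and by a normalised library size that the authors had set. Levels can so be compared between genes, but those of near-identical globin copies are uncertain because the copies may share reads. Reads on genes ranged from 5652757 to 7674248 in WT, 18662115 to 21299112 in mutants and 9050375 to 16150393 in morphants. The normalised library sizes were 0.737 to 0.859 times these totals in WT, 1.31 to 1.32 times in mutants and 0.894 to 1.07 times in morphants. Taking the plain totals instead moved the median log2 fold change of all genes to 0.68 in mutants and 0.22 in morphants, from −0.02 and −0.05. Fold changes below are therefore relative to the deposited scale, on log2(RPKM + 0.1), which understates the change of low genes. They were tested with limma over 21982 genes, and a call needed both a change of more than 2-fold and a p-value below 0.05 after Benjamini-Hochberg adjustment over all genes.

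The embryonic alpha globins were the most abundant members in WT and mutants, and were lower in mutants than in WT, with the direction of *hbae3* turning under cyclic loess normalization alone. *hbae3* (ENSDARG00000079305) was read at 8355, 11071 and 11726 RPKM in WT, 2945, 3057 and 3071 RPKM in mutants, and 5271, 4001 and 5858 RPKM in morphants. The groups did not overlap, with morphants between WT and mutants. The log2 fold change of *hbae3* was −1.76 (SE 0.20, limma adjusted p = 0.000233) in mutants, a 3.40-fold lower level, and −1.04 (SE 0.20, adjusted p = 0.00418) in morphants. Both passed the test, and fewer red cells cannot be told apart from less globin RNA per cell in whole embryos. Its call in mutants was lost where libraries were normalised by level. With cyclic loess normalization the value of *hbae3* was 0.10 (adjusted p = 0.0696) and with quantile normalization −0.17 (adjusted p = 0.0664).

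Of the *hbae1* rows, the more abundant (ENSDARG00000089124, named *hbae1.3* in the names table) had 1219, 1701 and 2063 RPKM in WT, 403, 441 and 440 RPKM in mutants and 884, 638 and 1087 RPKM in morphants. It was 3.79-fold lower in mutants (log2 fold change −1.92, SE 0.22, adjusted p = 0.000254) and its morphant value of −0.93 (SE 0.22, adjusted p = 0.0111) stayed under the fold threshold. Its mutant call was also lost under both normalizations by level, at −0.84 with quantile and −0.77 with cyclic loess normalization. The other row (ENSDARG00000089475, *hbae1.1*) had 291, 431 and 439 RPKM in WT, 118, 116 and 119 RPKM in mutants and 208, 146 and 201 RPKM in morphants. It was lower in both, by log2 fold changes of −1.69 (SE 0.18, adjusted p = 0.000152) and −1.06 (SE 0.18, adjusted p = 0.00223), of which the mutant call was lost with plain read totals (−0.96). The copies are near neighbours in the annotation and may share reads, so the split between the rows is uncertain. The morphant calls of *hbae3* and of this second row were narrow: without WT replicate 2, WT replicate 3 or morphant replicate 2 neither was called, at values of −0.99, −0.95 and −0.89 for *hbae3* and −0.97, −0.96 and −0.89 for *hbae1* (ENSDARG00000089475). Both were also lost when the scaling was changed, for *hbae3* at −0.35 with quantile normalization, −0.12 with cyclic loess normalization and −0.75 with plain read totals, and for *hbae1* (ENSDARG00000089475) at −0.82, −0.92 and −0.77.

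**Figure D1:**
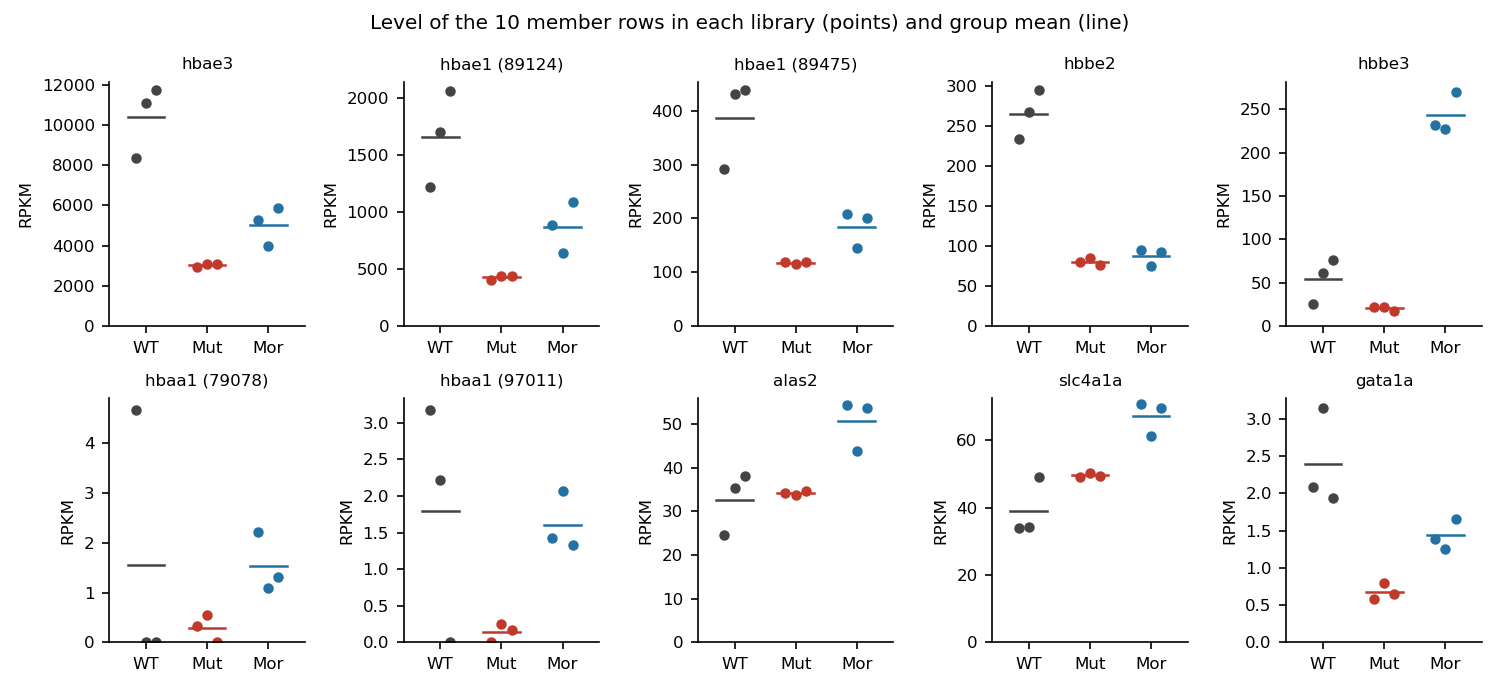
Level of the 10 member rows, in RPKM, in each of 9 libraries (points, replicates 1 to 3 from left to right) with the group mean (line), for WT, mutants (Mut) and morphants (Mor); numbers in brackets are the last digits of the gene identifier. The 3 mutant points of *hbae3* lie at 2945 to 3071 RPKM, below all others, whereas *hbbe3* is highest in morphants, at 227 to 270 RPKM.

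The beta globins of the members went separate ways in morphants. *hbbe2* (ENSDARG00000045143) was read at 233, 268 and 294 RPKM in WT, 80.1, 85.1 and 76.1 RPKM in mutants and 94.3, 74.3 and 92.0 RPKM in morphants. Every WT library was above every other library, and mutants and morphants overlapped. The log2 fold change was −1.71 (SE 0.12, limma adjusted p = 2.3e-05) in mutants and −1.61 (SE 0.12, adjusted p = 4.3e-05) in morphants, 3.28-fold and 3.05-fold lower levels, and mutants and morphants differed by −0.10 (SE 0.12, adjusted p = 0.616). With plain read totals the mutant value of *hbbe2* was −0.98, just inside 2-fold and not called.

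*hbbe3* (ENSDARG00000038147), in contrast, was read at 25.6, 61.3 and 76.2 RPKM in WT, 21.5, 22.2 and 17.1 RPKM in mutants and 232, 227 and 270 RPKM in morphants. All morphant libraries were above all WT libraries, and the lowest WT library was close to the highest mutant library. *hbbe3* rose 4.91-fold in morphants (log2 fold change 2.29, SE 0.33, adjusted p = 0.00117) and fell in mutants (−1.29, SE 0.33, adjusted p = 0.0154). It was 12.0-fold lower in mutants than in morphants (−3.58, SE 0.33, adjusted p = 0.000438), the only member called in that comparison. The morphant call and the call between mutants and morphants held under all 22 alternatives each. The mutant call was lost with plain read totals (−0.56, adjusted p = 0.136), without WT replicate 3 (−0.97, adjusted p = 0.0408) and without mutant replicate 3 (−1.17, adjusted p = 0.0582). Among all genes *hbbe3* ranked between 758 and 1643 by RPKM in WT, between 2147 and 2790 in mutants and between 282 and 299 in morphants. In the RefSeq annotation *hbbe3* and *hbbe2* lie near each other in the same globin cluster, apart from the cluster of the *hbae1*, *hbae3* and *hbbe1* genes.

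The ratio of *hbbe3* to *hbbe2* within a library, which no scaling of libraries can move, put the difference at 15.0-fold between morphants and WT. It was 0.110, 0.229 and 0.259 in WT, 0.268, 0.261 and 0.225 in mutants and 2.46, 3.06 and 2.93 in morphants. Mutants and WT overlapped (exact permutation p = 0.4, n = 3 a group) and morphants stood apart from both (exact permutation p = 0.1, the smallest that 3 against 3 allows). The ratio was chosen after these values were seen. As a share of the summed RPKM of all beta-type rows, *hbbe3* made up 0.507 to 1.12% in WT, 0.766 to 1.01% in mutants and 8.21 to 9.03% in morphants. The 3 *hbbe1* rows made up 94.5 to 95.3% in WT and 88.0 to 88.3% in morphants, so the *hbbe1* copies remained the main beta chains by RPKM in every library.

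The *hbbe1* rows themselves were lower in both groups. *hbbe1.1* had 1941, 2683 and 2539 RPKM in WT, 836, 856 and 885 RPKM in mutants and 992, 912 and 1018 RPKM in morphants, and every WT library was above the rest. Its log2 fold change was −1.46 (SE 0.13) in mutants and −1.28 (SE 0.13) in morphants. *hbbe1.2* gave −1.56 and −1.20, and *si:ch211-5k11.12*, the third copy, −1.53 and −1.27. On the deposited scale all were called in both comparisons. Calls with other scalings are given only for the members. As a share of plain reads on genes, *hbbe1.1* took 0.138 to 0.173% in WT, 0.0913 to 0.0963% in mutants and 0.0756 to 0.0807% in morphants. For *si:ch211-5k11.12* these shares were 0.124 to 0.163%, 0.0799 to 0.0838% and 0.0702 to 0.0766%.

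The adult alpha globin was at the limit of detection. The *hbaa1* row ENSDARG00000079078 had 17, 0 and 0 reads in WT, 7, 10 and 0 reads in mutants and 18, 14 and 8 reads in morphants, and ENSDARG00000097011 had 10, 7 and 0 reads in WT, 0, 4 and 3 in mutants and 10, 23 and 7 in morphants. The WT libraries spread from the highest RPKM of any library to 0 on both rows. A count of 0 allows up to 0.823 RPKM (3 reads) on the first row in WT replicate 2, and 0.819 RPKM on the other in WT replicate 3, so no order between WT and the other groups was detectable at this depth. Neither row was called in any comparison. Adjusted p ranged from 0.135 to 0.907 over both rows and the 3 comparisons. *hbaa1* made up at most 0.0775% of the summed RPKM of the globin members in any library, in a WT library.

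Over all 17 globin rows, 16 were tested. On the deposited scale 10 were called lower and 0 higher in mutants, with a median log2 fold change of −1.54. In morphants 7 were lower and 2 higher, with a median of −0.99. Calls with plain read totals are given below for the members only, and there most mutant calls of the globin members were lost. By comparison, 12.1% of all genes were lower and 10.4% higher in mutants, and 14.9% and 7.45% in morphants. The 2 higher rows in morphants were *hbbe3* and *ba1l*, an adult-type beta globin with 12, 17 and 4 reads in morphants against 0, 0 and 2 in WT. *ba1l* reached 0.5 RPKM only in morphant libraries. It therefore passed the filter only through the group where it is high, and no conclusion is drawn from its call. The alpha-type row *hbz* was called lower in mutants (−1.21) and in morphants (−1.18), on 27 to 53 reads in WT. Globin rows took 0.903 to 1.11% of all reads on genes in WT, 0.519 to 0.544% in mutants and 0.546 to 0.636% in morphants. WT did not overlap with either group. This share does not depend on the normalised library sizes, but it does depend on how reads spread over the other genes. The top 50 genes took 40.8 to 41.9% of reads in WT, 21.3 to 21.95% in mutants and 27.8 to 34.01% in morphants. The globin share was thus lower together with that of the top 50 genes, and a fall beyond theirs was not tested. Within the globins *hbae3* held 53.7 to 55.0% of summed RPKM in WT, 51.3 to 51.6% in mutants and 53.7 to 56.2% in morphants.

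**Figure D2:**
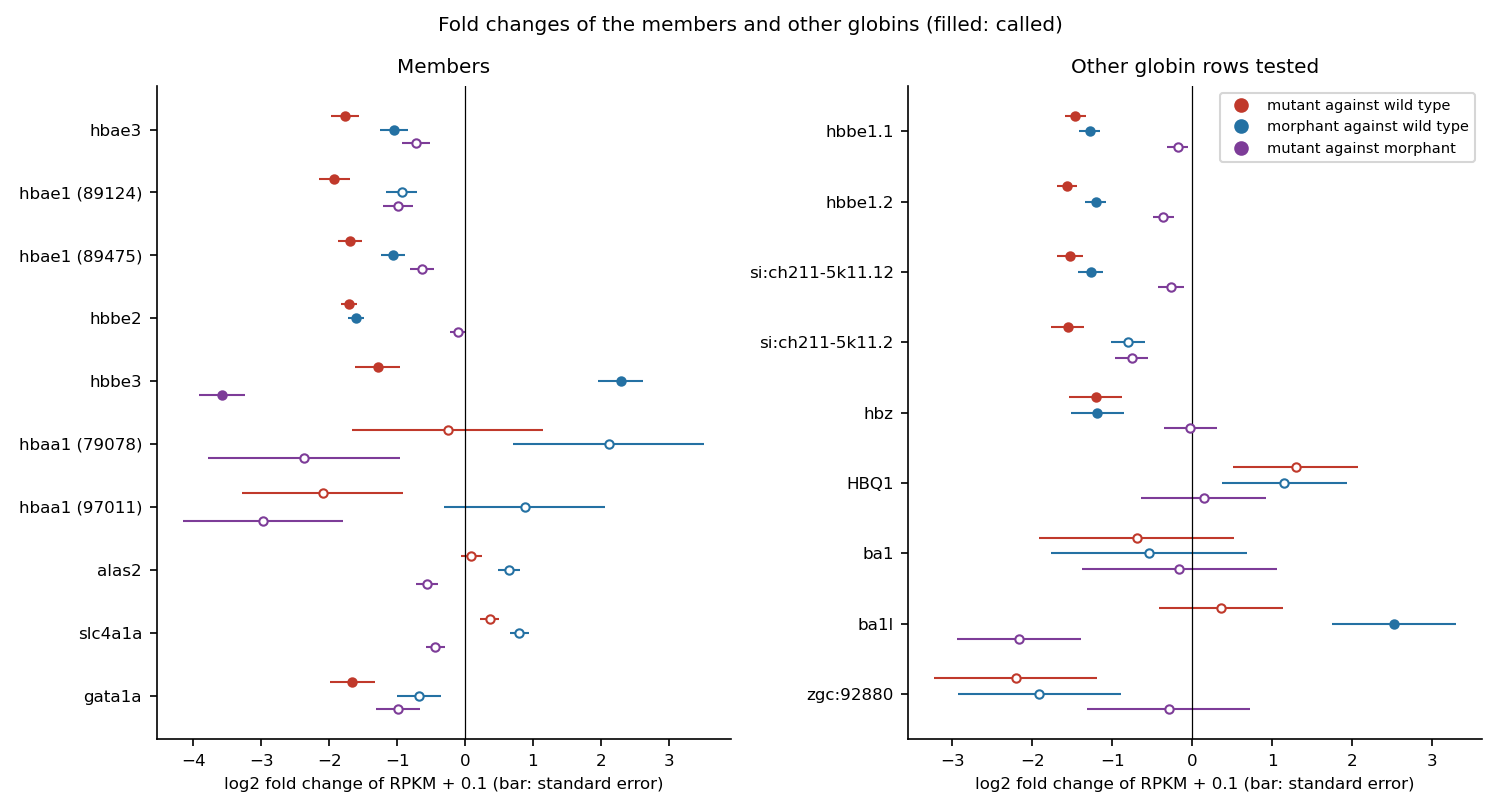
Log2 fold changes with standard errors of the 10 member rows (left) and 9 other globin rows tested (right) for the 3 comparisons; filled points passed the test. On the deposited scale, most embryonic globins lie below −1 in mutants (*hbae3* turns to 0.10 under cyclic loess normalization), and *hbbe3* has its morphant value at 2.29 and its value between mutants and morphants at −3.58.

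Counted over the members, 6 of 10 were called lower in mutants (5 embryonic globin rows and *gata1a*) and 0 higher, where 12.1% of all genes were called lower and 10.4% higher. In morphants 3 were lower and 1 higher, where 14.9% of all genes were lower and 7.45% higher. Between mutants and morphants 1 was lower and 0 higher, where 2.4% and 3.48% of all genes were. With plain read totals the calls in mutants were 2 lower, *hbae3* and *hbae1* (ENSDARG00000089124), and 1 higher, *slc4a1a*, and over all genes 6617 were then called higher and 1050 lower in mutants, against 2286 and 2657 on the deposited scale.

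Abundant genes as a class were lower in mutants, and the globins belong to them. Of the 556 genes with a mean above 100 RPKM, 45.9% were called lower in mutants and 7.37% in morphants, and all 5 embryonic globin rows of the members are above that level. *hbbe3*, with a mean of 106 RPKM over the 9 libraries, is above it only through its morphant libraries. Its group means were 54.4 RPKM in WT, 20.3 in mutants and 243 in morphants. Of the 107 genes other than globins with a mean above 1000 RPKM, 90 were called lower in mutants, at a median log2 fold change of −1.65, and 11 in morphants, at a median of −0.73. Over the 547 genes other than globins above 100 RPKM the medians were −0.91 and −0.31. The mutant values of the embryonic globins of the members ran from −1.92 to −1.29, and their morphant values from −1.61 for *hbbe2* to 2.29 for *hbbe3*. Against the muscle actin *actc1b*, another very abundant transcript, the *hbae3* ratio within a library was 0.216 to 0.243 in WT, 0.263 to 0.269 in mutants and 0.194 to 0.196 in morphants, differences of at most 1.37-fold. The levels of 100 and 1000 RPKM and the ratio to *actc1b* were chosen after the values were seen.

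**Figure D3:**
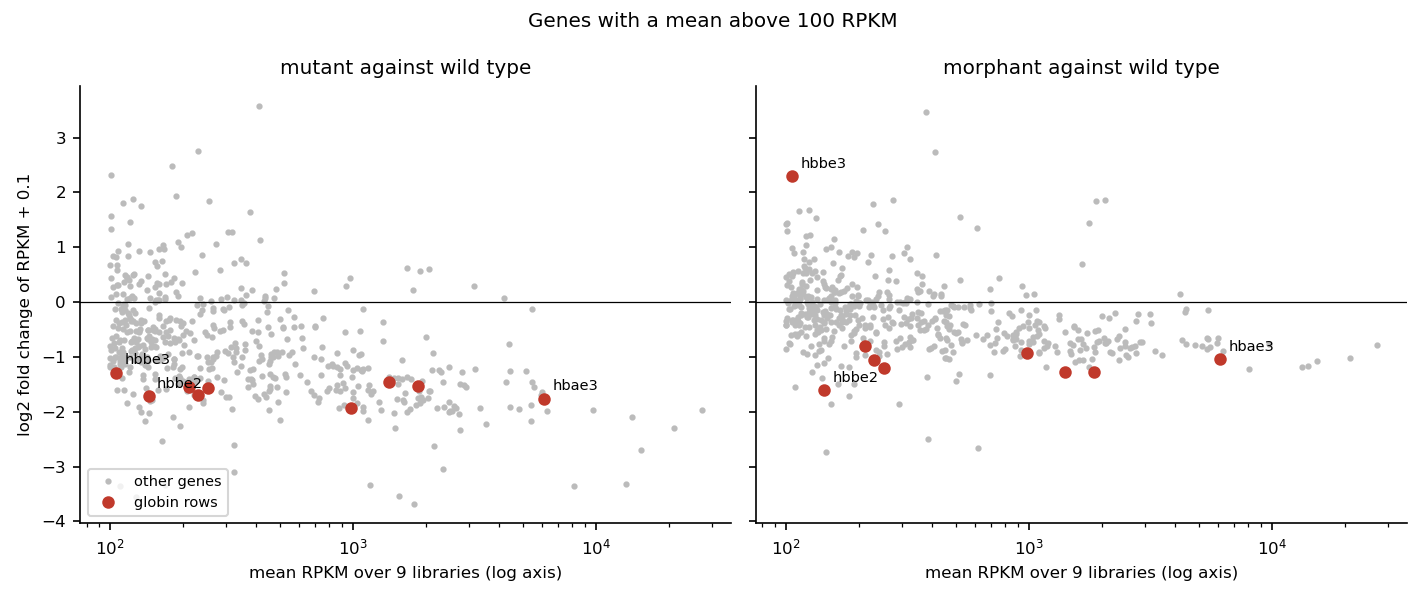
Log2 fold change in mutants (left) and morphants (right) against the mean RPKM over 9 libraries (log axis) for the 556 genes above 100 RPKM, with globin rows as large points. In mutants, on the deposited scale, the globins lie below 0 (*hbae3* turns under cyclic loess normalization) as do 439 of the 547 other genes, and in morphants *hbbe3* stands at 2.29 above nearly all genes shown. *hbbe3* passed the level of 100 RPKM only through its morphant libraries.

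*alas2*, which commits glycine to haem in red cells, was not called in either group. *alas2* (ENSDARG00000038643) was read at 24.5, 35.3 and 38.0 RPKM in WT, 34.3, 33.8 and 34.6 RPKM in mutants and 54.4, 43.9 and 53.5 RPKM in morphants. Mutants lay within the range of WT and morphants above it. Its log2 fold change was 0.10 (SE 0.16, limma adjusted p = 0.677) in mutants, turning to −0.10 without WT replicate 1 and to 0.83 with plain read totals. In morphants it was 0.65 (SE 0.16, adjusted p = 0.0119), a 1.57-fold higher level that stayed under the fold threshold in all 22 alternatives.

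The remaining haem synthesis enzymes were mostly near or above WT. On the deposited scale, of the 10 rows on the list, 1 was called lower and 0 higher in mutants (median log2 fold change 0.17), 2 were higher and 0 lower in morphants (median 0.50), and 1 was lower in mutants than in morphants. Of all genes 12.1% were lower and 10.4% higher in mutants, and 14.9% and 7.45% in morphants. Between mutants and morphants 2.4% of all genes were lower and 3.48% higher. The called gene in mutants was *alas1*, the form of the first enzyme used outside red cells, with 67.6, 81.0 and 80.9 RPKM in WT, 25.8, 26.9 and 25.7 RPKM in mutants and 65.6, 54.0 and 64.7 RPKM in morphants. On the deposited scale mutants were far below both other groups, by a log2 fold change of −1.54 (SE 0.11, adjusted p = 2.25e-05) against WT and −1.22 (SE 0.11, adjusted p = 0.000296) against morphants. Plain read totals moved the median log2 fold change of all genes in mutants to 0.68. Values with these totals are not given for this list or the later lists, so their calls hold for the deposited scale only.

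*hmbsa* and *hmbsb*, which join porphobilinogen into a linear tetrapyrrole, rose in morphants by log2 fold changes of 1.03 (SE 0.17) and 1.17 (SE 0.26). Their means were 4.13 and 3.51 RPKM in WT and 8.46 and 7.77 RPKM in morphants. *alad*, which makes porphobilinogen, had values of 0.64 in mutants and 0.85 in morphants, and *uros*, which closes the ring, 0.71 and 0.80, all under the fold threshold with adjusted p from 0.0006 to 0.0045. The later enzymes *urod* (−0.41 and −0.14), *cpox* (−0.35 and 0.33), *ppox* (−0.10 and −0.39) and *fech* (0.25 and 0.35), which inserts the iron, had adjusted p of at least 0.0533. *fech* had a mean of only 0.652 RPKM in WT.

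**Figure D4:**
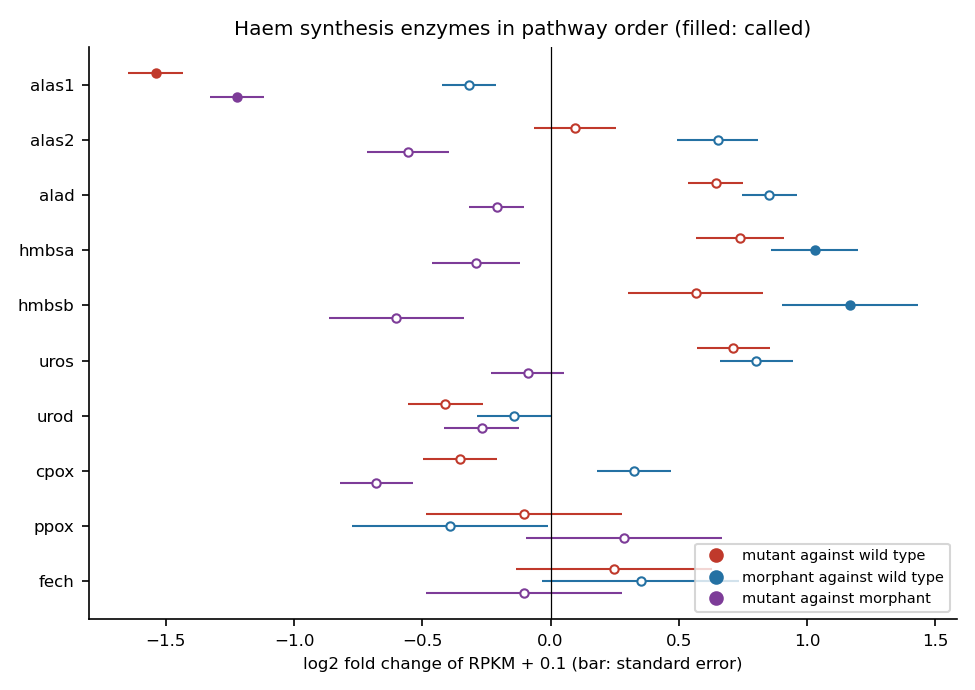
Log2 fold changes with standard errors of the 10 haem synthesis enzyme rows from the first step (top) to iron insertion (bottom), for the 3 comparisons; filled points passed the test. On the deposited scale *alas1* is at −1.54 in mutants, and in morphants only *hmbsa* (1.03) and *hmbsb* (1.17) passed.

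*slc4a1a*, like *alas2*, was not called in either group on the deposited scale. *slc4a1a* (ENSDARG00000012881) had 33.9, 34.1 and 49.0 RPKM in WT, 49.1, 50.1 and 49.5 RPKM in mutants and 70.6, 61.3 and 69.6 RPKM in morphants. The order was WT, mutants, morphants with no overlap, although the highest WT library and the lowest mutant library were nearly equal. Log2 fold changes were 0.37 (SE 0.14, limma adjusted p = 0.0675) in mutants and 0.80 (SE 0.14, adjusted p = 0.00252) in morphants, neither above 2-fold. With plain read totals they were 1.096 and 1.092, both called, and the difference between mutants and morphants went from −0.44 to 0.0045.

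On the list of red cell membrane and skeleton genes, 23 rows were tested. In mutants 5 were called higher and 2 lower (median log2 fold change 0.57) and in morphants 3 higher and 2 lower (median 0.44). Over all genes 10.4% were higher and 12.1% lower in mutants, and 7.45% and 14.9% in morphants. *rhag*, the ammonium channel of the red cell membrane, rose in both, from a mean of 12.6 RPKM to 38.0 in mutants (1.64) and 34.3 in morphants (1.49). The carbonic anhydrase *ca2* (1.35), glycophorin C *gypc* (1.31) and the skeleton protein beta-adducin *add2* (1.25) rose in mutants. Of genes outside the naming rule, named after their values were seen, the skeleton protein *epb41b* (1.095) rose and *mpp1* (−1.11) and the peroxiredoxin *prdx2* (−1.12) fell in mutants, and the red cell carbonic anhydrase *cahz* (1.05) and the glucose carrier *slc2a1b* (1.03) rose in morphants. *prdx2* had a mean of 453 RPKM, and 45.9% of all genes with a mean above 100 RPKM were called lower in mutants. The ankyrin row *ANK1 (2 of 2)* (−1.31) and the glucose carrier *slc2a1a* (−1.75) fell in morphants.

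*gata1a* was low and fell in mutants. *gata1a* (ENSDARG00000013477) had 2.09, 3.15 and 1.94 RPKM in WT, from 37, 56 and 40 reads, 0.578, 0.798 and 0.655 RPKM in mutants and 1.39, 1.26 and 1.66 RPKM in morphants. The groups did not overlap. The log2 fold change was −1.66 (SE 0.33, limma adjusted p = 0.00429) in mutants, 3.16-fold lower, and −0.68 (SE 0.33, adjusted p = 0.139) in morphants, not called. With plain read totals the value in mutants was −0.99, just inside 2-fold and not called.

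On the list of erythroid transcription factors, 22 rows were tested, *gata1a* among them. In mutants 3 were higher and 2 lower (median 0.50), where 10.4% and 12.1% of all genes were, and in morphants 3 were higher and 1 lower (median 0.08), where 7.45% and 14.9% were. *ldb1a*, the adaptor that joins LIM-only proteins in complexes with Gata1, rose in both (1.53 and 1.22), as did *klf3* (1.31 and 1.73) and *cbfb*, the partner of Runx proteins (1.301 and 1.41). *gfi1b*, a transcriptional repressor that acts within the red cell and platelet lineages, fell in both, with −1.10 in mutants and −1.25 in morphants. These calls were narrow, at limma adjusted p of 0.0476 and 0.0301, on 12 to 31 reads in WT, 34 to 64 in mutants and 11 to 31 in morphants. On the erythropoietin signalling list of 10 tested rows, beside the same shares of all genes, 0 were higher in either group and 1 was lower in each. That gene, named after its values were seen, was *epo* itself, the hormone of red cell production, at −2.34 in mutants and −2.38 in morphants, from 25 to 42 reads in WT, 20 to 35 in mutants and 6 to 16 in morphants. *cish*, a feedback inhibitor of cytokine receptors, was lower in mutants than in morphants (−1.04).

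Ratios within a library set the globins against the red cell genes without any scaling of libraries. The globin members leave out the *hbbe1* rows, which hold most beta-type RPKM. The summed RPKM of the globin members was 10132, 13534 and 14598 in WT, 3568, 3722 and 3724 in mutants and 6693, 5089 and 7510 in morphants. Divided by *alas2* it was 413, 383 and 384 in WT, 104, 110 and 108 in mutants and 123, 116 and 140 in morphants. WT lay far above both groups, 3.67-fold over mutants and 3.12-fold over morphants. Divided by *slc4a1a* the gap was 4.43-fold for mutants and 3.46-fold for morphants. Divided by *gata1a* the groups overlapped, at 4292 to 7521 in WT, 4661 to 6176 in mutants and 4043 to 4814 in morphants. The exact permutation p was 0.1, the smallest that n = 3 against 3 allows, for the ratios to *alas2* and *slc4a1a* against WT, and 1.0 and 0.4 for the ratio to *gata1a* in mutants and morphants. Of 33 such tests in all, 24 gave 0.1, which is 0.138 after Benjamini-Hochberg adjustment. *alas2* and *slc4a1a* are genes of medium level, so this ratio holds the shift of abundant genes described above, and its part in the result was not tested.

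The ratio of alpha to beta globin RPKM was taken over the rows named as such on the lists, which leave out the abundant beta row *si:ch211-5k11.12*. It was 3.87, 3.81 and 4.19 in WT, 3.24, 3.26 and 3.21 in mutants and 4.21, 3.47 and 4.54 in morphants. Mutants were below all other libraries, 1.22-fold under WT (exact permutation p = 0.1, n = 3 a group), and morphants overlapped with WT (p = 0.9). Over all 17 globin rows, a choice made after the values were seen, it was 1.91 to 2.15 in WT and 1.68 to 1.69 in mutants.

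**Figure D5:**
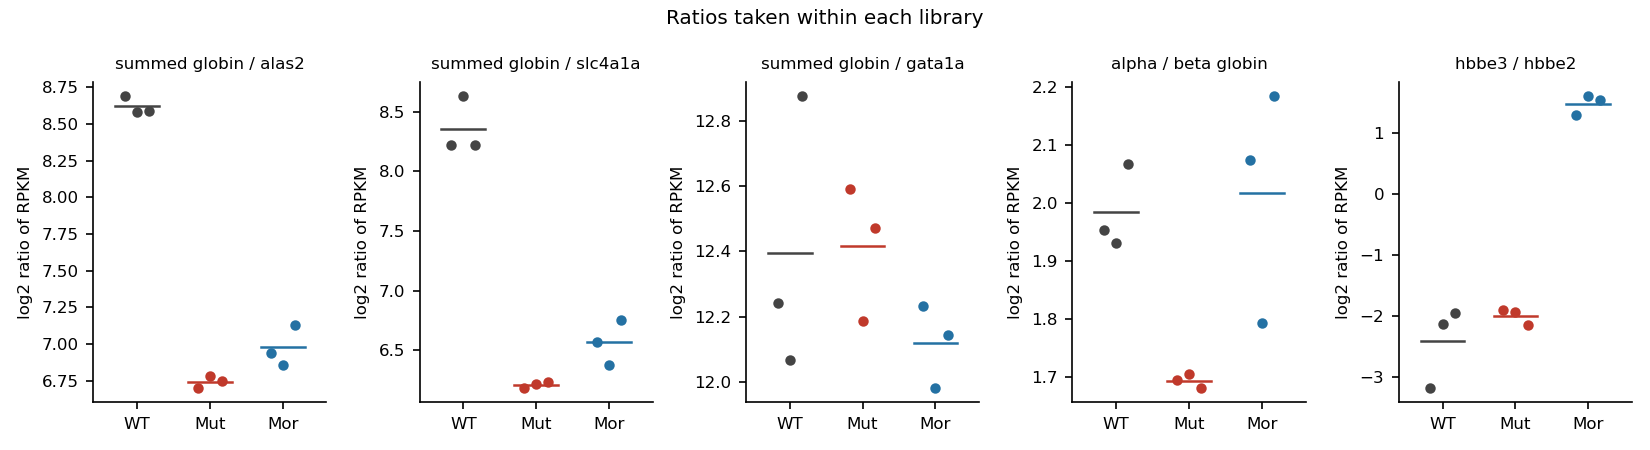
Log2 ratios of RPKM within each library (points, 3 a group) and group means (lines) for WT, mutants (Mut) and morphants (Mor); vertical axes do not start at 0. Globins over *alas2* and over *slc4a1a* are higher in all WT libraries, globins over *gata1a* overlap, and *hbbe3* over *hbbe2* is higher in morphants (1.298 to 1.615) than elsewhere.

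On the list of iron handling, 24 rows were tested. In mutants 3 were higher and 2 lower, where 10.4% and 12.1% of all genes were, and in morphants 3 were higher and 0 lower, where 7.45% and 14.9% were. The iron importer *slc11a2*, which carries iron out of the endosome in red cell precursors, fell in mutants (−1.39, SE 0.12, limma adjusted p = 5.97e-05) and had −0.05 in morphants. The ferritin chain *fth1a* (−1.17), named after its values were seen, also fell in mutants. It had a mean of 948 RPKM, and 45.9% of all genes with a mean above 100 RPKM were called lower in mutants. *aco1*, the iron regulatory protein, rose in mutants (1.74). The transferrin receptor row *tfr1b* (ENSDARG00000012552) rose in both (1.39 and 1.38), from 9 to 32 reads in WT. A second *tfr1b* row (ENSDARG00000077372) did not pass the filter, with means of 0.359 RPKM in WT, 0.408 in mutants and 0.335 in morphants. The other transferrin receptor *tfr1a*, needed for iron uptake by zebrafish red cells, rose in morphants (1.19). The hepcidin *hamp2*, the hormone that limits iron release, also rose there (2.77), on 1 to 14 reads in WT and 50 to 112 in morphants. The mitochondrial iron importer *slc25a37* had 1.36 in mutants, called, and 1.28 in morphants, not called. Its WT libraries held only 3 to 8 reads, near the floor, so the size of both values is uncertain.

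Of 14 rows on haem breakdown and haem binding, 2 were higher and 1 lower in each group. Among all genes 10.4% were higher and 12.1% lower in mutants, and 7.45% and 14.9% in morphants. Hemopexin *hpx*, a plasma scavenger of free haem, fell in both, with −2.51 in mutants and −3.34 in morphants, while a second row of that name, *HPX (2 of 2)*, rose (1.25 and 1.28). Haem oxygenase *hmox1a*, which opens the haem ring, rose in morphants (1.58, SE 0.17, limma adjusted p = 0.000334), and its mutant value of 0.51 was under the threshold. Among other members of the globin superfamily, the neuroglobin *ngb* rose in mutants (1.88). *cygb1*, a cytoglobin, had 0, 9.30 and 0 RPKM in WT and 14.4, 13.5 and 9.74 RPKM in mutants, and no fold is given because its size depends on the pseudocount at the zeros. The globin X gene *xgb*, named after its values were seen, was called lower in both groups on 2 to 6 reads in WT, 2 in each mutant library and 0 in morphants. *xgb* passed the filter only through its WT libraries, the group where it is high. Its reads lie around the floor of 3, so no conclusion is drawn from its calls.

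Markers of other cell types were read beside the globins. The shares of all genes were 10.4% called higher and 12.1% lower in mutants, and 7.45% and 14.9% in morphants. Skeletal muscle genes were lower in mutants as well, 4 of 8 called and 8 of 8 below 0 with a median of −1.23, and their summed level was 63146 to 81816 RPKM in WT, 24582 to 25975 in mutants and 39094 to 53329 in morphants. Of 10 liver genes 3 were lower and 2 higher in mutants (median −0.74). In morphants 1 was lower and 1 higher, with 6 of 10 above 0 and a median of 0.08. The liver sum was 8276 to 11752 RPKM in WT, 3257 to 3409 in mutants and 5125 to 7274 in morphants. Most of this sum was *apoa2* alone, with means of 9353 RPKM in WT, 2861 in mutants and 5574 in morphants. Of 7 heart genes 3 were lower and 1 higher in mutants, with sums of 106 to 124 RPKM in WT, 61.2 to 65.9 in mutants and 89.4 to 113 in morphants. The lens and retina list of 6 tested rows had 3 lower in mutants and 4 in morphants, with *opn1sw1*, the ultraviolet opsin, at −4.49 and −4.35.

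Leukocyte, thrombocyte and endothelial markers moved less together. Here too the shares of all genes were 10.4% higher and 12.1% lower in mutants, and 7.45% and 14.9% in morphants. Of 26 leukocyte rows 0 were higher and 4 lower in mutants, with 4 and 5 in morphants, and the summed level was 173 to 225 RPKM in WT, 184 to 186 in mutants and 239 to 272 in morphants, with *lcp1* at 0 in all libraries. Thrombocyte genes summed to 32.8 to 36.4 RPKM in WT, 50.3 to 52.4 in mutants and 52.8 to 58.1 in morphants, but of 7 tested rows 1 was higher and 2 lower in mutants (median log2 fold change 0.02), and 2 were higher and 1 lower in morphants (median −0.73). *itgb3a* was higher in both, and *mpl*, the thrombopoietin receptor, named after its values were seen, was lower in both. Endothelial genes summed to 57.0 to 61.1 RPKM in WT, 67.9 to 70.5 in mutants and 75.6 to 81.0 in morphants, and of 12 rows 1 was higher and 1 lower in mutants (median 0.17) and 1 higher and 0 lower in morphants (median 0.15). The part of cell composition in the globin values was not tested.

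In order of level in WT, *hbae3* stood first (mean 10384 RPKM, SD 1787, n = 3), then *hbae1* (ENSDARG00000089124, 1661), *hbae1* (ENSDARG00000089475, 387) and *hbbe2* (265). The last 2 overlapped in range, and *hbbe3* (54.4), *slc4a1a* (39.0) and *alas2* (32.6) overlapped as well, ahead of *gata1a* (2.39) and both *hbaa1* rows. In morphants *hbbe3* (243) came the third, above *hbae1* (ENSDARG00000089475, 185) with no overlap, and in mutants it came after *alas2* (34.2), at 20.3. The coefficient of variation of *hbbe3* between replicates was 47.8% in WT, 13.5% in mutants and 9.51% in morphants. That of *hbae3* was 17.2% in WT, 2.29% in mutants and 18.8% in morphants.

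Over the 9 libraries, the genes whose log2 level ran most like the mean profile of the embryonic globin members were *aldoaa* (r = 0.9996), *IDH2* (r = 0.9990), *rpl5b* (r = 0.9987), *rpl7a* (r = 0.9979) and *faua* (r = 0.9979). These include ribosomal proteins and a glycolytic enzyme of muscle, all abundant. Of 14281 genes compared, 893 (6.25%) had r above 0.9, and all points share the same libraries, groups and scaling factors. The mean profile was taken over standardised rows and includes *hbbe3*. That row had r = −0.07 with *hbbe2* and r = 0.28 with *hbae3*, so the mean is not the profile of any single globin. *hbbe3* taken alone, a choice made after its values were seen, ran most like *gpd1c* (r = 0.985), *he1a* (r = 0.985), *bri3* (r = 0.984), *ctslb* (r = 0.983) and *c9* (r = 0.983), and 288 genes (2.02%) had r above 0.9. *he1a*, the hatching enzyme of the hatching gland, had means of 166 RPKM in WT, 63.9 in mutants and 596 in morphants. *ctslb*, a cathepsin L found in the same gland, had 11.9, 4.96 and 77.3 RPKM.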

How the data were processed

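RNA of whole embryos was selected for polyA, made into directional libraries and sequenced as 50-bp single-end reads. STAR (alignment), HTSeq (gene counts) and edgeR were the tools of the authors, on the Zv9 build, with versions not given in the sources used here. The authors deposited RPKM values for 33737 genes and 9 libraries, relative to normalised library sizes. Multiplied by gene length, 100% of the values were whole multiples of 1 read, at a tolerance of 0.01. Each library was assigned by its sample label. WT replicate 3 was numbered by its title, since its column name repeats a 2. No column was left unused.

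A gene was tested if 3 or more libraries had 0.5 RPKM or more (21982 genes), on the scale of log2(RPKM + 0.1). Group means of all 9 libraries were fitted with limma 3.58.1 in R 4.3.3, with a trend, and p-values were adjusted over all genes. The fit was tested on simulated data. Values per library were compared with two-sided exact permutation tests, whose smallest p with 3 against 3 is 0.1. Other work used Python 3.11.15. A 0 was read against a floor of 3 reads, which covers counting error only because PCR copies could not be told apart.

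The members and lists were chosen with earlier results of these data known. Named genes were every member, every haem synthesis enzyme, up to 6 called genes of each other list with a mean of at least 1 RPKM, up to 2 genes of each marker list, and the 5 genes most like the embryonic globins with a mean of at least 2 RPKM. Alternatives were other pseudocounts, filters, scalings and models, recovered reads, a replicate block and leaving out each library. Counting options are not given in the sources used here, so near-identical globin copies may share reads. Gene copies and neighbours were named from a names table and the RefSeq annotation of another build. No coordinates are printed, and sequences and promoter motifs were not used here.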

Additional observations from a re-analysis of the deposited data

Results flagged for a closer look

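*hbbe3* is listed because its level differed between the 2 *cep290* groups and this difference passed the test. Its lower call in mutants against WT was lost in 4 of 22 alternatives. As a share of beta-type RPKM, *hbbe3* in mutants (0.766 to 1.01%) lay within the range of WT (0.507 to 1.12%). Its log2 fold change between mutants and morphants was −3.58 (limma adjusted p = 0.000438), with all 3 mutant libraries below all 3 morphant libraries. Groups of 3 libraries are too small for a test of single outlying libraries.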

How the results depend on the processing

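Over the 10 members and 3 comparisons, 651 alternative values were computed, of which 588 kept the direction and the call, 27 lost the call, 18 gained it and 18 turned direction. The count of members called in mutants, 6, fell to 3 with library read totals and to 3 with library read totals without the globin reads, and was 4 with quantile and 4 with cyclic loess normalization, where *hbae3* and *hbae1* (ENSDARG00000089124) were lost. In morphants the count of 4 fell to 2 with quantile normalization and ranged from 2 to 6 when 1 library was left out. It was 3 with library read totals, where *slc4a1a* was gained, and 3 with cyclic loess normalization, where *hbaa1* (ENSDARG00000079078) was gained, while *hbae3* and *hbae1* (ENSDARG00000089475) were lost in both. Between mutants and morphants the count of 1 became 2 with cyclic loess normalization, 4 with voom on recovered reads, 2 with only the groups compared, 2 with a weight per library, and 1 to 2 when 1 library was left out. With library read totals the log2 difference of the summed globin level was −1.05 in mutants, −0.70 in morphants and −0.35 between them, against −1.78, −0.99 and −0.79.

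When 1 library was left out, *alas2* in mutants ranged from −0.10 (without WT replicate 1) to 0.22. Direction also turned for *hbae3* in mutants with cyclic loess normalization (0.10), and *hbaa1* (ENSDARG00000097011) in morphants without WT replicate 3 (range −0.72 to 1.80). For *hbaa1* (ENSDARG00000079078) in mutants it turned with a pseudocount of 0.01 (0.68), cyclic loess normalization (1.27), library read totals (0.032), the same without globin reads (0.032), a weight per library (0.41), without WT replicate 1 (1.60) and without mutant replicate 3 (0.55), with a range of −1.18 to 1.60 over the libraries left out. Between mutants and morphants it turned for *slc4a1a* with library read totals (0.0045) and without globin reads (0.0032). It did so for *hbae3* with quantile (0.18) and cyclic loess normalization (0.23). For *hbbe2* it turned with quantile normalization (0.26), cyclic loess normalization (0.31), library read totals (0.34) and these without globin reads (0.34). The cause was not tested. A minimum mean of 2 RPKM left no value for *gata1a* and both *hbaa1* rows.

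Over all genes, 2286 were called higher and 2657 lower in mutants, 1637 and 3273 in morphants and 766 and 528 between them. Library read totals gave 6617 and 1050, 3019 and 2415, and 2377 and 178. Cyclic loess normalization gave 2037 and 1382 in mutants, 1563 and 914 in morphants. Quantile normalization gave 1620 and 1489 in morphants, and 378 and 381 between them. A minimum mean of 2 RPKM gave 2086 and 1015 in mutants, 1488 and 622 in morphants. A pseudocount of 1 gave 421 and 428 between them, and voom 1651 and 689, a weight per library 1730 and 643, and only the groups compared 1610 and 674.

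The replicate numbers do not pair the libraries: same-numbered libraries had correlations of deviations from −0.041 to 0.006. With a replicate block 6, 4 and 1 members were called, as without it. The smallest permutation p of 0.1 with 3 libraries a group and the few reads of *hbaa1* limit what could be detected.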
